A study of Mus musculus with 2 samples.

Results

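The cells described here are blood neutrophils that carry transcripts of interferon-stimulated genes, from a mouse stroke experiment profiled by droplet single-cell RNA sequencing. A cell labelled neutrophil by the authors was counted as a member when its raw unique molecular identifiers (UMIs, 1 per captured transcript) of Ifit1, Ifit3, Ifit3b, Rsad2, Isg15, Rtp4, Irf7, Cmpk2 and Isg20 summed to 3 or more. That held for 191 of 3825 neutrophils, in a table of 5793 cells. The 2699 neutrophils in which the sum was 0 were the comparison, and another 935 had a sum of 1 or 2.

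The aged group was C57BL/6 mice of 18 to 24 months and the young group C57BL/6 mice of 2 to 4 months, with 1 library from each. All mice had undergone transient blockage of the proximal middle cerebral artery 24 h before blood was drawn, and no library from mice without stroke was analysed here. The blood cells had been sorted by CD11b and Ly6G, into a Ly6G– and a Ly6G+ fraction of CD11b+ cells, and were captured with the 10x 3′ v2 kit. How many mice stand behind a library, and how the fractions were combined, is not given in the sources used here. A single library per age leaves no replicates: no p-values are reported, every interval below is a 95% interval that covers counting error only, and age cannot be told apart from library.

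Type I interferons bind a receptor found on nearly all nucleated cells, and kinases bound to the receptor pass the signal on to transcription factors. These bind the interferon-stimulated response element (ISRE) in promoters and switch on a broad set of antiviral genes. Neutrophils carry this receptor, and a small set of neutrophils with such a gene program is known from mouse blood.

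Some promoters of the genes that chose the members hold the ISRE core, taken here as a pair of TTTC with any 2 bases between them, or a pair of GAAA spaced alike where the core lies on the other strand. The sequences below are RefSeq promoters of build GRCm38.p6, from 250 bases before to 50 bases after the gene's start, 5′ to 3′ on the gene's strand, with each match in capitals. Ifit1 (chr19:34640639-34640938, plus strand) and Isg15 (chr4:156200769-156201068, minus strand) are shown because they are markers of the class with 2 and 3 matches.
Ifit1: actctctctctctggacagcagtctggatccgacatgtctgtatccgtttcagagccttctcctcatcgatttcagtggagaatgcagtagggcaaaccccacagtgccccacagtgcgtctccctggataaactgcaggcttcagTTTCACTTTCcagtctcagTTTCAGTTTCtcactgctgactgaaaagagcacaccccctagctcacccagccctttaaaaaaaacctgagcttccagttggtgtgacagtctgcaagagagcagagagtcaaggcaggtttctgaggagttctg
Isg15: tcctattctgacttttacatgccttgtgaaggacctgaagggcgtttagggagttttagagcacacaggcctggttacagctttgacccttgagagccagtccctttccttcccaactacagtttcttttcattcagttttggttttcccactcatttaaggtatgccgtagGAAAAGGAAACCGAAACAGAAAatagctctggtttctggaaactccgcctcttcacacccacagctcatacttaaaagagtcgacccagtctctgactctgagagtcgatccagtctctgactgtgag

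In Ifit1, the protein of which binds viral RNA, the matches began 104 and 85 bases before the start. In Isg15, a ubiquitin-like protein that is attached to other proteins, the matches overlapped one another and began 78, 72 and 66 bases before the start. Ifit3 (chr19:34583279-34583578, plus strand) and its neighbour Ifit3b (chr19:34607707-34608006, plus strand) are shown as a pair of similar promoters. Over 268 bases aligned without gaps at a shift of 32, 75% of their bases were the same, and each holds 2 matches.
Ifit3: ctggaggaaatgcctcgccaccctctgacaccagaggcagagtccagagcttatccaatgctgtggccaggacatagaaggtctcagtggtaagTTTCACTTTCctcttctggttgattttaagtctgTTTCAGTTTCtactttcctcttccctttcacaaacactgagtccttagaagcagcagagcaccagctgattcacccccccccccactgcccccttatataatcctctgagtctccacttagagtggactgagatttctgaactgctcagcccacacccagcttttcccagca
Ifit3b: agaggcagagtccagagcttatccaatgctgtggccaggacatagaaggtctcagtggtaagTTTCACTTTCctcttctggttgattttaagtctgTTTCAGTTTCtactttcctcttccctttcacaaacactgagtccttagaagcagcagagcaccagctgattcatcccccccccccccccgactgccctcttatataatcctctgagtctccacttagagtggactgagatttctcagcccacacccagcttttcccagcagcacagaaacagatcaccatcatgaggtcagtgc

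Rsad2 (chr12:26456403-26456702, minus strand), which encodes the antiviral enzyme viperin, had 1 match, beginning 120 bases before the start. Oas3 (chr5:120777610-120777909, minus strand) is shown as an interferon-stimulated gene that did not choose the members. It belongs to the oligoadenylate synthetases, which activate RNase L, and had 1 match, beginning 75 bases before the start.
Rsad2: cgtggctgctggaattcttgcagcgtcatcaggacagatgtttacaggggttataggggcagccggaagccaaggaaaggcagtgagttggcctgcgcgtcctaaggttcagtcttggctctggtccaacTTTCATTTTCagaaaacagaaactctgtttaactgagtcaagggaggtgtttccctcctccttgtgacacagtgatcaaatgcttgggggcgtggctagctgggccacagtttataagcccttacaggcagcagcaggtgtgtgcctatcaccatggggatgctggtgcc
Oas3: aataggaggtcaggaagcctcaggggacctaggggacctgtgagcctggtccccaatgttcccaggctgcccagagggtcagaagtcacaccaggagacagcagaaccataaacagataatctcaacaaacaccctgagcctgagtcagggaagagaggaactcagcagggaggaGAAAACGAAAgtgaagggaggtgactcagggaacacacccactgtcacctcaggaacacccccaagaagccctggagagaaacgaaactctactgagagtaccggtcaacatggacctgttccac

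Of the 8 rule genes with a promoter in the table, 5 held a match, and Irf7, Cmpk2 and Isg20 did not. The promoter of Rtp4 is not shown. Of the other interferon-stimulated genes from the lists described below, 33 of the 84 with an entry held a match, which is 39.3%. Counted by gene in the same way, the share was 3.99% over all 27025 genes with an entry. Counted by promoter, it was 3.44% of all 32851 promoters of the same length. A match is a description of letters and not of binding.

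Members made up 4.18% of the neutrophils of the aged library (112 of 2681, Clopper-Pearson interval 3.45% to 5.01%) and 6.91% of those of the young library (79 of 1144, interval 5.51% to 8.53%). The aged share was 0.605 times the young share, and the intervals did not overlap. A sum of 0 was found in 1913 aged and 786 young neutrophils, and a sum of 1 or 2 in 656 and 279.

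Because a fixed number of UMIs is easier to reach in a deep cell, each cell was also thinned to 1 common depth, just under that of the shallowest cell (1260 UMIs). The share was then 2.24% (1.71% to 2.87%) in the aged and 4.63% (3.49% to 6.02%) in the young library. The aged library, with the smaller share, was the deeper one, with a median of 1914 UMIs per neutrophil against 1636.5 in the young library. Within a library members were found at all depths. They were 4.82%, 3.58% and 4.14% of the aged neutrophils of low, middle and high depth, in 3 classes of nearly equal size, and 6.33%, 6.51% and 7.87% of the young ones.

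NK and B cells served as a guide to free RNA, although they can respond to interferon themselves. A sum of 3 or more was found in 2 of 104 such cells (1.92%) in the aged library (interval 0.234% to 6.77%) and in 2 of 87 (2.30%) in the young library (interval 0.280% to 8.06%), with median depths of 2847 and 2079 UMIs. After thinning none of them reached it, which allows shares of up to 2.88% and 3.45% (3 cells of each total), and their Clopper-Pearson intervals reached 3.48% and 4.15%. With and without thinning, these intervals overlapped those of the share of members in both libraries.

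**Figure D1:**
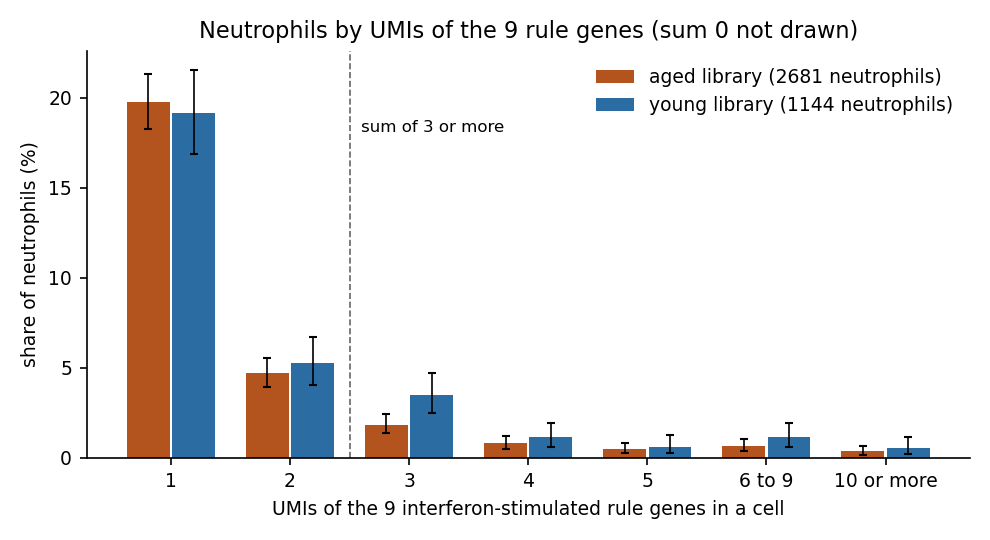
Share of neutrophils (%) by the summed UMIs of the 9 rule genes in a cell, in the aged (brown) and young (blue) library, with 95% binomial intervals; cells with a sum of 0 are not drawn. To the right of the dashed line, the threshold, lie 112 aged and 79 young cells, and at a sum of 3 the aged bar (1.83%) is lower than the young bar (3.50%).

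Most members were near the threshold and a few were far above it. The median sum was 4 in aged and 3 in young members, the highest were 29 and 27, and 28 aged and 19 young cells had 6 or more. Members held 42.2% of all UMIs of the rule genes in aged neutrophils and 54.7% in young neutrophils. As a description of the threshold, the other interferon-stimulated genes, summed without the interferon-induced transmembrane (IFITM) family, stood at 6266 counts per 1000000 UMIs (CPM) in aged neutrophils with a sum of 3 and at 5345 CPM in those with a sum of 2. In young neutrophils they stood at 7679 and 6321 CPM.

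Members were close to the sum-0 cells in the medians of depth and quality measures. The median was 1861.5 UMIs in aged members and 1901 in aged sum-0 cells, and 1658 in young members and 1622 in young sum-0 cells. Cells over 2 times the median depth of all neutrophils of the library were more frequent among members. They were 4.46% of aged members (5 cells) against 2.30% of aged sum-0 cells, and 5.06% of young members (4 cells) against 1.91%. Mitochondrial transcripts made up a median of 0.351% in aged members and 0.346% in aged sum-0 cells, and 0.456% in young members and 0.446% in young sum-0 cells. After thinning, members showed a median of 412 genes in the aged and 464 in the young library, against 393 and 447 in sum-0 cells. Of all cell barcodes, 12 occurred in both libraries, and 1 member carried one of them.

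The rule fixed the levels of its 9 genes, so these are a description of the members. Isg15 gave 213 UMIs (881 CPM) in aged and 131 UMIs (899 CPM) in young members, and was found in 77.7% and 69.6% of them. Rtp4, a receptor-transporting protein induced by interferon, gave 119 UMIs (492 CPM) in aged and 115 UMIs (789 CPM) in young members. Irf7, the transcription factor that amplifies interferon production, gave 59 UMIs (244 CPM) in aged and 27 UMIs (185 CPM) in young members. These genes were found in many members of both libraries, Irf7 in 39.3% of aged and 29.1% of young members.

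Isg20, an exonuclease that degrades viral RNA, gave 54 UMIs (223 CPM) in aged and 40 UMIs (275 CPM) in young members. Rsad2 gave 33 UMIs (136 CPM) in aged and 35 UMIs (240.3 CPM) in young members, and Ifit1 gave 39 UMIs (161 CPM) in aged and 25 UMIs (172 CPM) in young members. The others had fewer UMIs in the members: Ifit3 had 26 in aged and 18 in young ones, Ifit3b 12 and 14, and Cmpk2, a mitochondrial nucleotide kinase encoded next to Rsad2, 15 and 5. In the last 500 bases of Ifit3, 14.9% of the 50-base words also occur in Ifit3b, so part of the split between these copies is uncertain.

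Members usually carried several of these genes. The median was 3 different rule genes in both libraries and the highest was 8. In 13 of 112 aged and 2 of 79 young members all UMIs came from 1 gene. The genes differed in how far their UMIs lay in members: 76.5% of the Ifit3 UMIs of aged neutrophils and 90% of those of young neutrophils did so, and 23.6% and 32.5% of the Isg20 UMIs.

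Each gene was also measured in cells chosen by the other 8 genes, which leaves its own counts out of the choice of cells. The 9 genes themselves were chosen with earlier results of these data known. The ratios are therefore a description and no independent support for the class. Ifit1 stood at 142 CPM in aged cells with 3 or more UMIs of the other genes and at 2.50 CPM in aged cells with none of them, a ratio of 56.9 (27.5 to 129). In the young library it stood at 144 and 2.13 CPM, a ratio of 67.4 (20 to 354). Isg15 had ratios of 14.6 (11.4 to 18.5) in the aged and 18.4 (13.2 to 25.8) in the young library. Ratios were smaller for Isg20, at 5.05 (3.38 to 7.36) and 4.05 (2.35 to 6.70), and for Irf7, at 6.57 (4.30 to 9.81) and 5.67 (2.98 to 10.4). The lower bound was above 1 for all 9 genes in the aged library and for 8 in the young library. The exception was Cmpk2 in the young library, at 4.04 (0.385 to 24.7), from 2 UMIs in the cells with 3 or more.

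**Figure D2:**
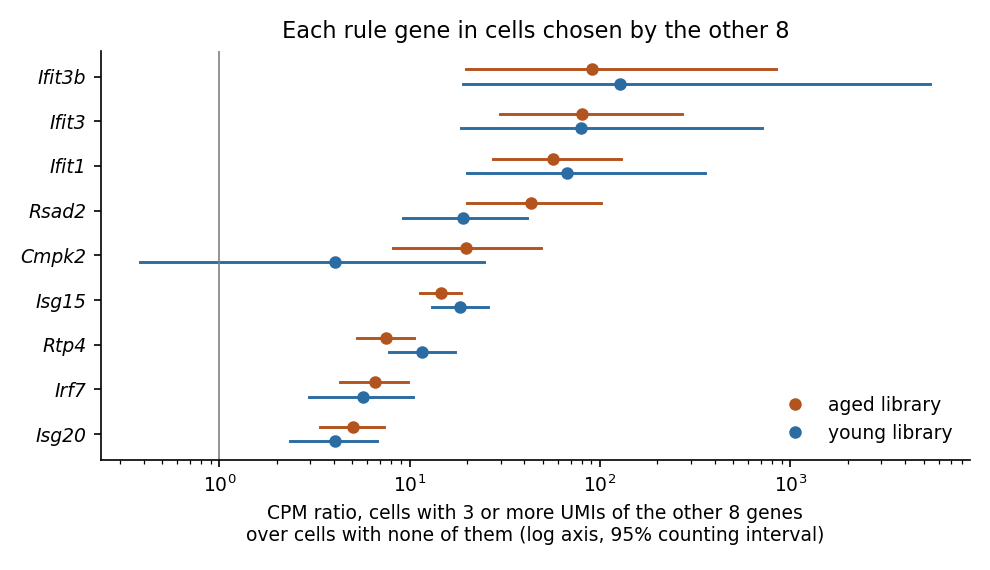
Ratio of CPM (log axis) of each rule gene in neutrophils with 3 or more UMIs of the other 8 rule genes over neutrophils with none of them, in the aged (brown) and young (blue) library, with exact 95% counting intervals. Ratios in the aged library run from 5.05 for Isg20 to 91.0 for Ifit3b, and the young interval of Cmpk2 reaches below 1.

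Interferon-stimulated genes outside the rule were higher in members in both libraries. Of 131 such genes listed, 111 were in the table, and a gene was taken as measured when it had 20 or more UMIs over members and sum-0 cells of a library. That minimum also counts member UMIs, so a gene with few UMIs can reach it by being high in members. Usp18 and Xaf1 did so in aged cells, with 8 UMIs in members and 12 in sum-0 cells each. The counts here and by list below carry this limit. In the aged library 33 of 67 measured genes were at least 2-fold higher in members and 1 was at least 2-fold lower, where 6.4% of all measured genes were that much higher and 13% that much lower. In the young library 24 of 52 were higher and 2 were lower, where 5.33% of all genes were higher and 12.9% lower. Their median log2 ratio was 0.98 in the aged and 0.83 in the young library, and that of all measured genes was 0.01 and -0.00. Of the 52 genes measured in both libraries, 44 had ratios above 1 in both, 3 had ratios below 1 in both and 5 went opposite ways, and 18 were at least 2-fold higher in both.

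Large ratios were rarer among genes with more UMIs. Of all genes with 50 or more UMIs, 3.21% were at least 2-fold higher and 7.31% at least 2-fold lower in aged members, and 2.29% and 4.97% in young members. With 200 or more UMIs these shares were 0.653% and 0.725% in aged and 0.543% and 0.136% in young members. Of the interferon-stimulated genes with 200 or more UMIs, 6 of 23 were at least 2-fold higher in aged members and 2 of 13 in young members. TMM scaling moved the median log2 ratio of all genes to -0.19 in the aged and -0.21 in the young library. Of the genes with 50 or more UMIs, 49 were then at least 2-fold higher and 352 lower in aged members, in place of 112 and 255, and 24 higher and 171 lower in young members, in place of 48 and 104. Of the interferon-stimulated genes measured, 23 of 64 in aged and 18 of 51 in young members were at least 2-fold higher without the members with a sum of 6 or more. With TMM scaling 26 of 67 and 21 of 52 were.

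Antiviral effectors and sensors led the genes higher in both libraries. Ifi204, a DNA-binding protein of the HIN-200 family, stood at 157 CPM in aged members against 30.7 CPM in aged sum-0 cells, a ratio of 5.11 (3.45 to 7.41). In young cells it stood at 151 against 25.7 CPM, a ratio of 5.89 (3.30 to 10.3). It had a UMI in 25% of aged and 22.8% of young members, against 5.96% and 4.58% of sum-0 cells and 8.65% and 3.45% of NK and B cells. The intervals of both ratios overlapped widely.

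Ifi27l2a, an interferon-induced membrane protein, stood at 413 CPM in aged members against 113 CPM in aged sum-0 cells, a ratio of 3.65 (2.91 to 4.55). In young cells it stood at 1291 against 195 CPM, a ratio of 6.61 (5.46 to 7.99). Its UMIs lay in 30 of 112 aged and 33 of 79 young members, with up to 17 in 1 cell of each library. NK and B cells carried it in 32.7% (aged) and 19.5% (young) of cells, with the median depths given above.

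Genes of the oligoadenylate synthetase family followed. Oasl2, a member of this family, stood at 190.2 CPM in aged members against 46.6 CPM in aged sum-0 cells (4.08, 2.89 to 5.66) and had a ratio of 4.87 (3.37 to 6.96) in young cells. Oas3 stood at 136 CPM in aged members against 35.3 CPM in aged sum-0 cells (3.87, 2.56 to 5.69) and had a ratio of 4.41 (2.69 to 7.06) in young cells. The aged Oas3 value rested in part on the cells with a sum of 6 or more, without which its log2 ratio was 1.12 in place of 1.95. Oas2 and Oas1a had fewer UMIs, with ratios of 5.22 (1.88 to 12.7) and 3.86 (0.945 to 11.8) in aged and 6.13 (2.01 to 17.3) and 11.2 (3.23 to 40.5) in young members, so that the aged interval of Oas1a held 1. Xaf1, a partner of the apoptosis inhibitor XIAP, had ratios of 10.9 (3.88 to 29.1) and 6.02 (1.55 to 20.9), from 8 aged and 5 young member UMIs. Of these 6 and 4 lay in the cells with a sum of 6 or more, without which its ratios were 3.62 (0.394 to 16.3) and 1.6 (0.0361 to 11.9), with intervals that held 1. Oas2 in aged members was then at 2.97 (0.568 to 9.87), which also held 1.

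Ly6e, Lgals9, Sp100 and Trim30a had smaller ratios than Oasl2 in both libraries. Ly6e, a surface protein that affects viral entry, stood at 666 CPM in aged members against 337 CPM in aged sum-0 cells (1.97, 1.67 to 2.33) and was 1.79-fold higher (1.48 to 2.16) in young members. Lgals9, the lectin galectin-9, was 2.23-fold higher (1.52 to 3.19) in aged and 3.49-fold higher (2.12 to 5.59) in young members. Sp100, a nuclear body protein, was 3.08-fold higher (2.09 to 4.41) in aged and 3.67-fold higher (2.19 to 5.96) in young members, and Trim30a 2.13-fold (1.66 to 2.70) and 1.68-fold (1.2 to 2.31). Not every gene of the list was higher beyond counting error: Trim30b had a ratio of 1.00 (0.756 to 1.30) in the aged and 1.05 (0.745 to 1.44) in the young library. Ifit2 and Mx1, classic genes of the response, were hardly captured. Ifit2 gave 4 UMIs in aged and 2 in young members and none in sum-0 cells, and Mx1 gave no UMI in members.

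**Figure D3:**
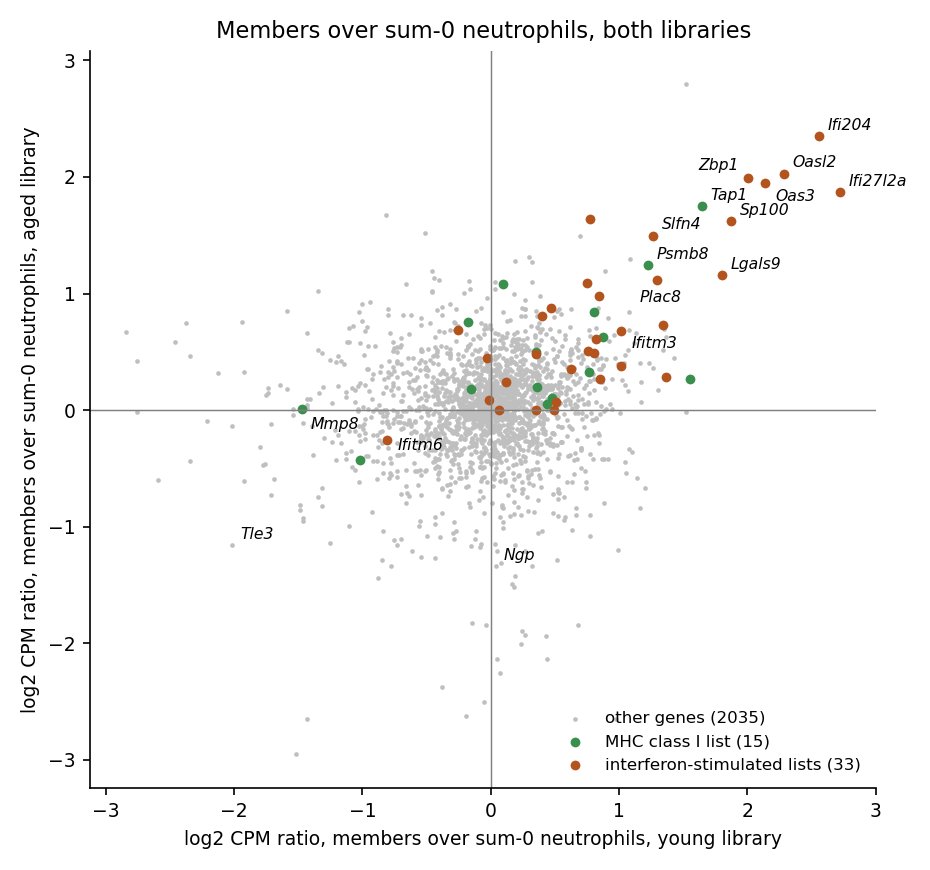
Log2 ratio of CPM in members over sum-0 neutrophils in the aged library (vertical) and in the young library (horizontal), for 2083 genes with 50 or more UMIs in each library, rule genes left out; 4 genes with no UMI in members of a library are not drawn. Of the 33 genes of the interferon-stimulated lists (brown), 28 lie above 0 in both libraries. Of the 2035 other genes (grey), which scatter around 0, 617 do.

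By role, the antiviral effectors had 18 of 36 measured genes at least 2-fold higher and 0 lower in aged members, and 16 of 30 higher and 2 lower in young members. Of all measured genes, 6.4% were that much higher and 13% lower in aged members, and 5.33% and 12.9% in young members. Genes that detect nucleic acids or carry the interferon signal were higher as well. Of these 7 of 13 were at least 2-fold higher in aged members and 3 of 8 in young members, none was that much lower, and the median log2 ratios were 1.08 and 0.83. Zbp1, a sensor of Z-form nucleic acids, stood at 132 CPM in aged members against 33.3 CPM in aged sum-0 cells (3.98, 2.62 to 5.89) and at 137 against 34.2 CPM in young cells (4.01, 2.26 to 6.89). Irf9, a transcription factor of the response, was 2.12-fold higher (1.06 to 3.88) in aged and 4.99-fold higher (2.42 to 9.86) in young members. Without the cells with a sum of 6 or more, Irf9 was at 1.64 (0.640 to 3.51) in aged members, an interval that held 1. In young members it was then at 4.27 (1.77 to 9.36). The RNA sensor gene Ddx58 was 3.33-fold higher (1.68 to 6.11) in aged members, and its ratio in young members, 1.75 (0.439 to 5.16), had an interval that held 1. Of its 4 young member UMIs, 3 lay in cells with a sum of 6 or more.

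The list of ISG15 conjugation and feedback genes had 6 of 9 measured genes at least 2-fold higher and 1 lower in aged members, and 2 of 6 higher in young members. Of all measured genes, 6.4% were that much higher and 13% lower in aged members, and 5.33% and 12.9% in young members. Usp18, the protease that removes ISG15 and damps receptor signalling, had ratios of 10.9 (3.88 to 29.1) in the aged and 19.3 (6.00 to 71.8) in the young library. It was found in 8 aged and 10 young members with 1 UMI each, and its young total of 15 UMIs was below the minimum of 20 for the counts by list. In the aged library Usp18, with 12 UMIs in sum-0 cells, reached that minimum only with its member UMIs. Without the cells with a sum of 6 or more, which held 6 and 7 of these UMIs, its ratios were 3.62 (0.394 to 16.3) and 7.69 (1.19 to 39.5), so that the aged interval held 1. Parp14 and Parp9, of the ADP-ribosyltransferase family, had ratios of 2.98 (0.747 to 8.79) and 3.42 (1.02 to 9.14) in aged and 6.42 (2.28 to 17.1) and 4.82 (1.29 to 15.5) in young members. Without the cells with a sum of 6 or more, Parp14 was at 4.27 (1.00 to 14.1) in young members. Parp9 was then at 2.72 (0.524 to 8.95) in aged and 3.84 (0.680 to 14.9) in young members, and both intervals held 1. The young total of Parp9 was also below the minimum of 20 UMIs. Parp14, with 12 UMIs in young sum-0 cells, reached it in the young library only with its member UMIs. Socs3, a feedback inhibitor of cytokine signalling, stood at 1.00 (0.734 to 1.34) in aged and 1.41 (1.08 to 1.81) in young members.

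Immunity-related GTPases, best known as targets of interferon-gamma, gave few UMIs. Ifi47 had ratios of 9.65 (3.95 to 22.3) and 9.63 (2.22 to 41.9) and Igtp of 7.66 (2.64 to 20) and 5.62 (1.87 to 15.5) in aged and young members, each from 5 to 10 member UMIs. Without the cells with a sum of 6 or more, Igtp was at 3.20 (0.580 to 11.9) in young members, an interval that held 1. The young totals of Ifi47 and Igtp were below the minimum of 20 UMIs for measured genes. Over all measured genes 6.4% were at least 2-fold higher and 13% lower in aged members, and 5.33% and 12.9% in young members. Of the whole interferon-gamma list 3 of 6 measured genes were at least 2-fold higher and 1 lower in aged members, and 1 of 2 was higher in young members. The 3 higher in aged members were Ifi47, Igtp and Irgm1, with 17, 15 and 14 UMIs in aged sum-0 cells. The higher one in young members was Gbp7, with 19 UMIs in young sum-0 cells. All of them reached the minimum of 20 only with their member UMIs, so these counts are a description and no support. The lower one in aged members was Cd74, the class II invariant chain, at 0.462 (0.124 to 1.21).

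Among the genes of MHC class I antigen presentation, ratios were above 1 for 15 of 16 measured genes in aged and 11 of 16 in young members. Of these genes 3 were at least 2-fold higher in aged members, and 3 were higher and 2 lower in young members, where of all genes 6.4% were higher and 13% lower in the aged and 5.33% were higher and 12.9% lower in the young library. Their median log2 ratios were 0.41 and 0.40, beside 0.01 and -0.00 for all measured genes. Psmb8, a subunit of the immunoproteasome, stood at 215 CPM in aged members against 90.7 CPM in aged sum-0 cells (2.37, 1.74 to 3.18) and was 2.34-fold higher (1.69 to 3.18) in young members. Tap1, part of the transporter that carries peptides into the endoplasmic reticulum, was 3.36-fold higher (1.44 to 6.97) in aged and 3.13-fold higher (1.54 to 5.97) in young members, and B2m, the light chain, 1.41-fold (1.27 to 1.57) and 1.28-fold (1.12 to 1.45). The lower genes in young members were Calr and Pdia3, chaperones of the endoplasmic reticulum, at 0.494 (0.131 to 1.32) and 0.361 (0.0730 to 1.09).

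Within the IFITM family, membrane proteins that block fusion of viruses with cells, the genes differed in direction. Ifitm3 stood at 3559.5 CPM in aged members against 2224 CPM in aged sum-0 cells (1.6, 1.49 to 1.72) and at 4112 against 2034 CPM in young cells (2.02, 1.85 to 2.21). Ifitm1 stood at 1.18 (1.13 to 1.24) in aged and 1.09 (1.02 to 1.16) in young members, where the young difference was smaller than the shift that TMM scaling brings to all genes. Ifitm2 stood at 1.06 (1.01 to 1.12) and 0.993 (0.914 to 1.08). Ifitm6 was lower, at 3146 CPM in aged members against 3753 CPM in aged sum-0 cells (0.838, 0.778 to 0.902) and at 755 against 1320.0 CPM in young cells (0.572, 0.468 to 0.694). In the last 500 bases of Ifitm3, 4.43% of its 50-base words occur in Ifitm2, 3.33% in Ifitm1 and none in Ifitm6.

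Of 8 measured genes for receptors and kinases of interferon signalling none was at least 2-fold higher in either library, beside 6.4% (aged) and 5.33% (young) of all genes. Ratios were above 1 for 4 of them in aged and 7 in young members, and Ifnlr1, a chain of the type III receptor, had no UMI in young members. Their median log2 ratios were 0.07 and 0.38, and their summed levels were 1.01 times (0.854 to 1.2) and 1.24 times (1.02 to 1.51) those of the sum-0 cells. Ifnar1, a chain of the type I receptor, stood at 0.989 (0.313 to 2.40) and 1.30 (0.399 to 3.32), and Ifnar2, the other chain, at 0.756 (0.358 to 1.42) and 1.2 (0.580 to 2.26), so that all 4 intervals held 1. Of 21 interferon genes listed, 1, Ifng, was in the table, and it gave no UMI in members.

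**Figure D4:**
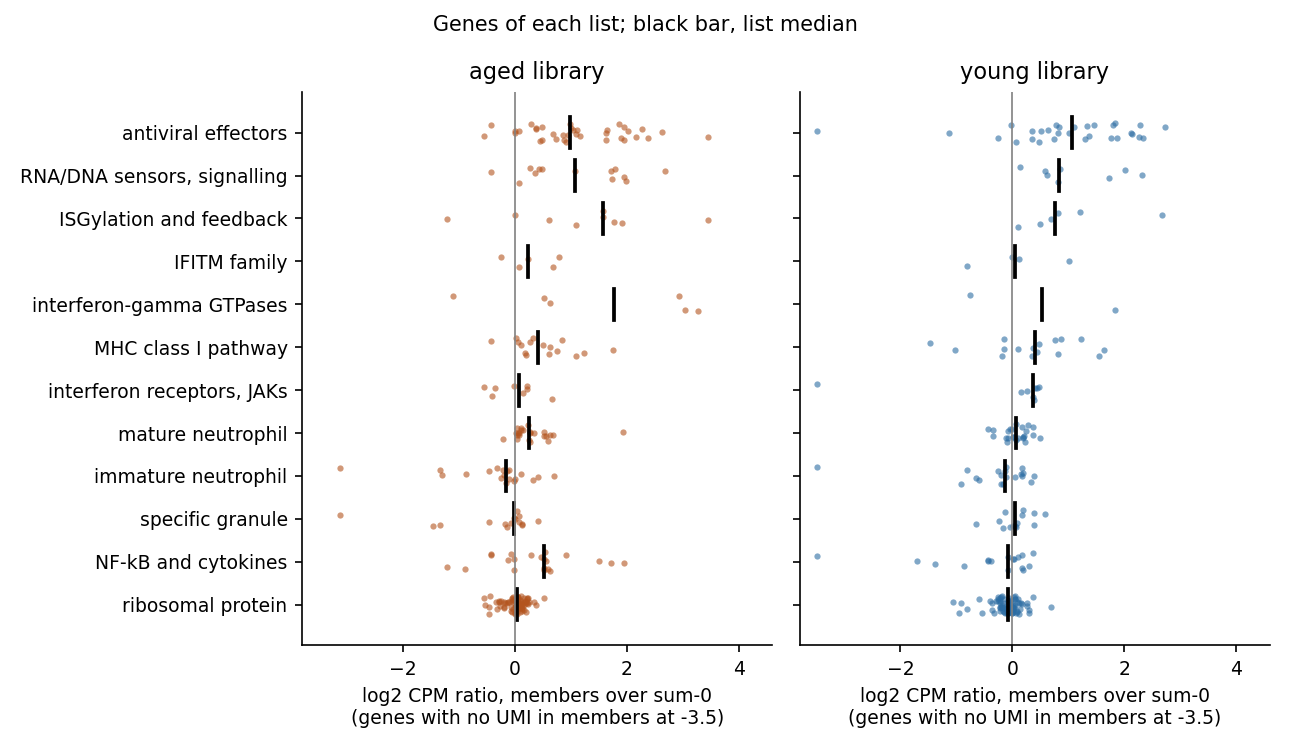
Log2 ratio of CPM in members over sum-0 neutrophils (horizontal) for each measured gene (20 or more UMIs) of 12 lists, in the aged (left) and young (right) library; black bars are list medians, and genes with no UMI in members are drawn at the left edge. The antiviral effectors have medians of 0.99 (aged) and 1.06 (young) and the sensors 1.08 and 0.83, while the medians of the specific granule and ribosomal lists lie between -0.07 and 0.05.

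The remaining genes with the firmest difference in both libraries had ratios below those of Ifi204, Ifi27l2a, Oasl2, Oas3 and Zbp1. Among them, Slfn4, Slfn2 and Rnf114 belong to the interferon-stimulated lists and Psmb9 to the MHC class I list. Plac8, a cysteine-rich leukocyte protein, was 1.79-fold higher (1.48 to 2.16) in aged and 2.12-fold higher (1.65 to 2.69) in young members. Slfn4 and Slfn2, of the Schlafen family, had ratios of 2.82 (2.04 to 3.83) and 1.42 (1.22 to 1.63) in aged and 2.41 (1.42 to 3.92) and 1.69 (1.41 to 2.02) in young members. Pttg1, which encodes the cell division regulator securin, was 2.46-fold higher (1.74 to 3.40) in aged and 2.12-fold higher (1.38 to 3.17) in young members. Id2, Rnf114, Lst1 and Psmb9 were also higher in both libraries, at ratios between 1.28 and 2.46. Without the cells with a sum of 6 or more, Rnf114 was at 1.797 (0.841 to 3.42) in aged and 1.64 (0.571 to 3.83) in young members. Psmb9 was then at 1.41 (0.793 to 2.33) in aged and 1.46 (0.792 to 2.49) in young members. Plac8 was at 1.28 (0.989 to 1.64) in aged members. Slfn4 was at 1.83 (0.91 to 3.37) and Id2 at 1.3 (0.841 to 1.94) in young members. All these intervals held 1. Those of Slfn2, Pttg1 and Lst1 stayed above 1 in both libraries, as did Plac8 in young and Slfn4 and Id2 in aged members. Malat1, Wfdc17 and Slpi were 1.12-fold to 1.24-fold higher, and with TMM scaling Wfdc17 turned lower in both libraries, Slpi in the aged and Malat1 in the young one.

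Several genes of neutrophil granules and of the cytosol were lower in members, mostly by little. Of the 12 named by their upper bounds, 8 had an interval below 1 in both libraries. Retnlg, a resistin-like protein of neutrophils, stood at 56278 CPM in aged members against 64488 CPM in aged sum-0 cells (0.873, 0.858 to 0.888) and at 41514 against 46571 CPM in young cells (0.891, 0.868 to 0.915). S100a8 and S100a9, the subunits of calprotectin, had ratios of 0.921 (0.913 to 0.930) and 0.975 (0.964 to 0.985) in the aged and 0.921 (0.908 to 0.933) and 0.949 (0.933 to 0.964) in the young library. Mmp8, the neutrophil collagenase, had a ratio of 0.861 (0.770 to 0.960) in aged members and 0.530 (0.429 to 0.648) in young members. Tle3, a transcriptional corepressor, had ratios of 0.449 (0.179 to 0.938) and 0.247 (0.0502 to 0.740), from 7 aged and 3 young member UMIs. Wfdc21, Lcn2, Tmsb4x, Mcl1, Slc2a3 and S100a11 had ratios of 0.577 to 0.981 over both libraries, and Ifitm6, given above, completed the set. With a threshold of 5 UMIs for members Mmp8 turned higher in the aged and Retnlg in the young library, and with a threshold of 2 Tmsb4x turned higher in the aged one, each by less than 0.01 on the log2 scale. S100a11 turned higher in the aged library among cells of 1500 to 3000 UMIs.

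The lists of neutrophil maturity had median ratios near 1. The immature list had a median log2 ratio of -0.16 in aged and -0.13 in young members, with 3 and 1 of 19 measured genes at least 2-fold lower and none that much higher, where 13% of all genes in the aged and 12.9% in the young library were that much lower. The mature list stood at 0.25 and 0.07. Of its 24 genes 1 was at least 2-fold higher in aged members and none in young members, beside 6.4% and 5.33% of all genes. Without its genes that the NF-kB and immediate-early lists also hold, the medians of the remaining 16 were 0.13 and 0.09, smaller than the shift that TMM scaling brings to all genes. Ngp, a granule protein of immature neutrophils, stood at 401 CPM in aged members against 1014 CPM in aged sum-0 cells (0.396, 0.320 to 0.484) and at 597 against 582 CPM in young cells (1.03, 0.814 to 1.28). Camp, an antimicrobial peptide precursor, gave 2 UMIs in aged members against 287 in aged sum-0 cells, a ratio of 0.114 (0.0138 to 0.417), and 3 against 22 UMIs in young cells, a ratio of 1.31 (0.252 to 4.37). In aged sum-0 cells 31 of the 287 Camp UMIs lay in 1 cell. Both genes were lower in aged members and had intervals that held 1 in young members, and the difference between the libraries was not tested.

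The list of NF-kB targets and cytokines had 3 of 21 measured genes at least 2-fold higher and 1 lower in aged members, and 0 of 17 higher and 3 lower in young members. Of all genes, 6.4% were higher and 13% lower in the aged library, and 5.33% were higher and 12.9% lower in the young library. Cxcl2, a chemokine that draws neutrophils, had a ratio of 1.44 (1.32 to 1.57) in aged and 1.02 (0.884 to 1.16) in young members, and Il1b, which encodes interleukin-1 beta, 1.44 (1.28 to 1.61) and 0.945 (0.828 to 1.07). Cxcl3, another such chemokine, was 3.87-fold higher (2.56 to 5.69) in aged members, where 15 of its 33 UMIs lay in 1 cell, and had no UMI in young members. The difference between the libraries was not tested.

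Markers of other cell types are given beside these results. The 7 neutrophil markers summed to 0.933 (aged) and 0.927 (young) of their level in sum-0 cells, and all 7 were detected. The 8 monocyte markers, all detected, summed to 649 CPM in aged members against 610.4 CPM in aged sum-0 cells (1.06, 0.899 to 1.25) and to 687 against 658 CPM in young cells (1.04, 0.840 to 1.28). Of 7 measured, 6 had ratios above 1 in aged members, with a median log2 ratio of 0.61, and 1 was at least 2-fold higher, Ccr2, a chemokine receptor, at 2.14 (1.07 to 3.92). In young members 4 of 7 were above 1 and 1 was at least 2-fold lower, with a median of 0.00. Of all genes 6.4% were at least 2-fold higher in aged members and 12.9% at least 2-fold lower in young members. NK markers summed to 8.27 CPM in aged members against 13.1 CPM in aged sum-0 cells, with 5 of 6 at 0 in members, and to 89.2 against 41.3 CPM in young cells (2.16, 1.09 to 3.99), with Ncr1 at 0. All 4 B cell markers in aged members and 3 of 4 in young members were at 0, as were all 4 mast cell and basophil markers in both. Dendritic, platelet and erythroid markers had summed ratios with intervals that held 1. The part of these transcripts in the results was not tested.

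The number of rule-gene UMIs in a cell went with the level of other interferon-stimulated genes. Summed without the IFITM family, these stood at 3973, 4723, 6525 and 9486 CPM in aged neutrophils with a sum of 0, 1 to 2, 3 to 5 and 6 or more. In young neutrophils they stood at 4658, 5799, 8291 and 13802 CPM. The level was higher at each step in both libraries, and the counting intervals of neighbouring classes did not overlap.

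Ifi27l2a stood at 113, 209, 394 and 472 CPM over the same classes in the aged library and at 195, 312, 968 and 2268 CPM in the young library. Ifitm3 was likewise higher at each step, and reached 4398 CPM in the highest aged and 5559.7 CPM in the highest young class. Usp18 stood at 3.02, 6.28, 11 and 101.1 CPM in aged and at 3.56, 5.92, 27.4 and 194 CPM in young neutrophils, with 6 and 7 UMIs in the highest classes. These features had their highest level in the few cells with the most rule-gene UMIs.

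Ifitm6 stood at 3753, 3852, 3462 and 2174 CPM in aged and 1320.0, 1198, 849 and 470.2 CPM in young neutrophils, and was lowest in the highest class of both. Ngp stood at 1014, 1140.1, 438 and 286 CPM in the aged library and showed no such order in the young one, at 582, 509, 612 and 553 CPM.

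**Figure D5:**
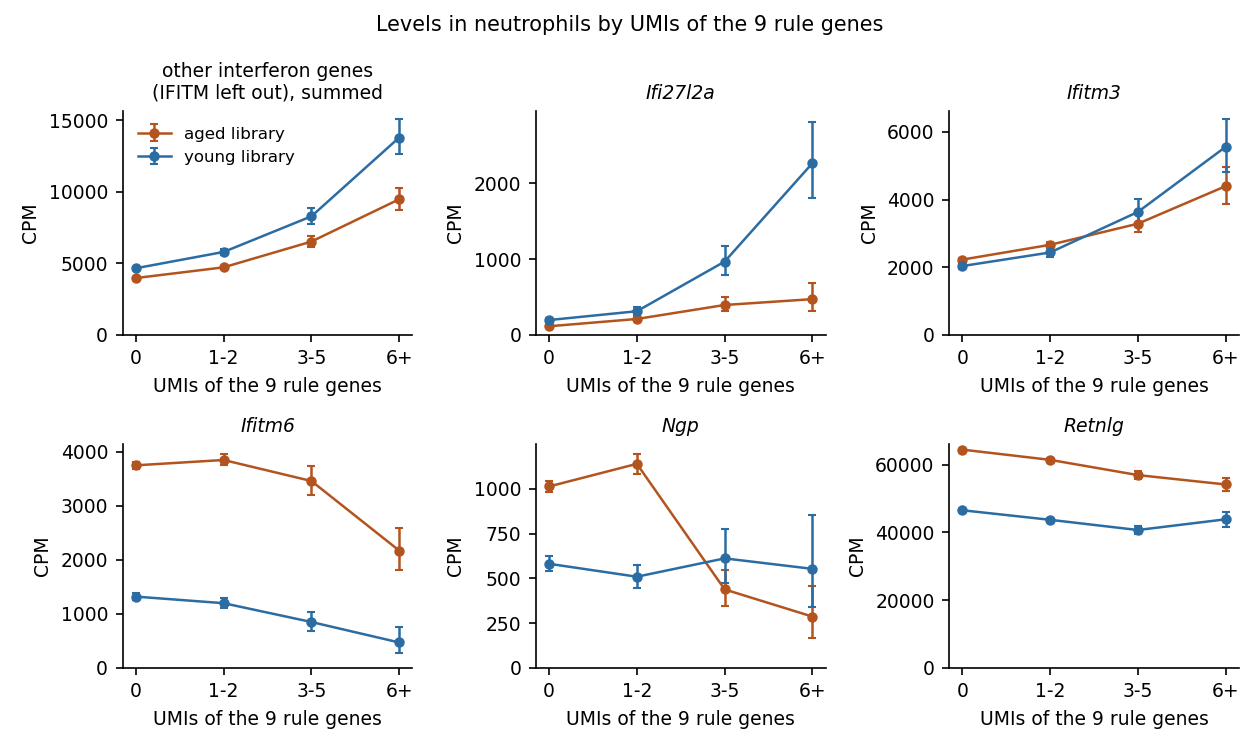
Level (CPM, with exact 95% Poisson intervals) of 6 features in neutrophils by the summed UMIs of the 9 rule genes, in the aged (brown) and young (blue) library. The other interferon-stimulated genes, Ifi27l2a and Ifitm3 are highest at 6 or more in both libraries, and Ifitm6 is lowest there.

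Aged members were next compared with young members. Of 715 genes with 50 or more UMIs in members of both libraries together, 10 were at least 2-fold higher in aged members and 30 were at least 2-fold lower, which is 1.4% and 4.2%. The median log2 ratio of aged over young was -0.22 in members and -0.23 in sum-0 cells.

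Ifitm6 stood at 3146 CPM in aged members and 755 CPM in young members, 4.17-fold higher (3.41 to 5.14), and was 2.84-fold higher (2.71 to 2.99) in aged sum-0 cells. Cd9, a membrane tetraspanin, was 3.01-fold higher (2.11 to 4.41) in aged members, Il1r2, the decoy receptor of interleukin-1, 2.64-fold higher (2.04 to 3.44), and Cd14, the co-receptor for lipopolysaccharide, 2.66-fold higher (1.79 to 4.07). In sum-0 cells their ratios were 2.17, 2.13 and 1.75, so they were higher in the aged library in both kinds of cell. Mmp8 was 2.05-fold higher (1.63 to 2.59) in aged members and 1.26-fold higher (1.2 to 1.33) in aged sum-0 cells, and Retnlg 1.36-fold and 1.38-fold.

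Ifi27l2a was lower in the aged library, at 413 CPM in aged members and 1291 CPM in young members, a ratio of 0.320 (0.249 to 0.410), and had a ratio of 0.579 (0.497 to 0.676) in sum-0 cells. Fos, Jund, Lst1, Csf3r and Wdr89 had ratios of 0.280 to 0.480 in members and of 0.216 to 0.576 in sum-0 cells. Over the other interferon-stimulated genes as a whole, 1 of 37 measured in members was at least 2-fold higher in aged members and 5 were lower, beside 3% and 7.37% of all genes with 20 or more UMIs in members. Their median log2 ratio was -0.21 in members, beside -0.23 for all these genes, and -0.11 in sum-0 cells. Among the rule genes, Rtp4 had a ratio of 0.623 (0.478 to 0.812) and Isg15 of 0.979 (0.784 to 1.23) in aged over young members, as a description.

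Outside neutrophils the rule genes summed to 89.8 CPM in aged and 86.7 CPM in young monocytes, and to 90.5 and 310.1 CPM in dendritic cells. All aged neutrophils together stood at 239.6 CPM and all young ones at 364 CPM. A sum of 3 or more was found in 4.93% of aged and 4.89% of young monocytes, with median depths of 6366 and 6604 UMIs. In dendritic cells it was found in 4.67% and 11.3%, and in aged mast cells in 6.82% (3 of 44). After thinning to the common depth these shares were 0.604% and 0% in monocytes, 0% and 1.89% in dendritic cells and 4.55% in aged mast cells. The other interferon-stimulated genes, without the IFITM family, stood at 7251 CPM in aged and 9659 CPM in young members, against 6592 and 6223 CPM in monocytes and 3973 and 4658 CPM in sum-0 neutrophils. In the aged library mast cells, at 7344 CPM, stood at about the level of the members.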

How the data were processed

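The deposited table holds raw UMI counts per gene and cell, made by the authors with Cell Ranger 2.1.1 on mm10 per the submitters' processing notes, and the authors' population and library of each cell. What cell filters preceded it is not given in the sources used here. It lists 11691 genes.

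Raw counts of the cells of a class were summed within a library and divided by the class's total UMIs. Ratios carry exact conditional binomial intervals, CPM values exact Poisson intervals and shares exact binomial (Clopper-Pearson) intervals, all at 95% and for counting error only. A gene counts as higher or lower from a ratio of 2 or 0.5. The members and the gene lists were chosen with earlier results of these data known. Named genes outside the rule had 50 or more UMIs in each library: the 24 with the highest lower bound and the 12 with the lowest upper bound over both libraries, and the 6 highest and 6 lowest between ages. Up to 4 genes of a list were also named, and genes of the type I response named beyond these were chosen after their values were seen. Ribosomal, mitochondrial, globin, immunoglobulin and unnamed genes were left out of the ranking.

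Library totals were 13752454 UMIs (aged) and 6440664 (young), with members holding 241888 and 145663. Doublets were not removed in the main values, and their removal by Scanpy's Scrublet score was an alternative. Alternatives were other thresholds, thinned cells, edgeR TMM scaling and DESeq2 size factors (as scalings alone, with no test), and other UMI minimums. The choice of cells by the other 8 rule genes, and leaving out members with a sum of 6 or more or cells over 2 times the median depth, were added after seeing the data. Scripts were tested on simulated data. Python 3.11.15, numpy 2.4.6, scipy 1.17.1, pandas 2.3.3, scanpy 1.11.5, matplotlib 3.10.9, R 4.3.3, edgeR 4.0.16 and DESeq2 1.42.0 were used.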

Additional observations from a re-analysis of the deposited data

Results flagged for a closer look

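Cells that the authors labelled Eryth-Neutro, which no comparison above uses, reached a sum of 3 or more in 26.7% of cases in the aged library (4 of 15, 7.79% to 55.1%) and in 38.5% in the young library (5 of 13, 13.9% to 68.4%), above the share in NK and B cells. Their median depths were 3853 and 6134 UMIs. After thinning to the common depth none of them reached it, which with so few cells allows shares of up to 20% and 23.1% (3 cells of each total). After thinning to 500 UMIs 1 of the 15 aged cells and none of the young cells reached it. The part of depth in these shares was not tested.

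The summed level of the ribosomal protein list went opposite ways in the libraries, at 1.05 times the sum-0 level in aged members (1.02 to 1.07) and 0.965 times in young members (0.943 to 0.987). Fth1, the ferritin heavy chain, did so too, at 1.06 (1.00 to 1.11) in aged and 0.786 (0.733 to 0.842) in young members. The aged differences were smaller than the shift that TMM scaling brings to all genes: with it the ribosomal list was at 0.912 in aged and 0.836 in young members, and Fth1 at 0.921 and 0.681, lower in both libraries. Neither difference between the libraries was tested, since each age has 1 library.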

How the results depend on the processing

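No paired analysis was possible because each age has 1 library, and for the same reason no library could be left out. The share of neutrophils in the class was lower in the aged than in the young library under all 9 alternatives run on it. It was 8.88% in aged and 12.2% in young neutrophils with a threshold of 2, 1.53% and 2.27% with a threshold of 5, 2.24% and 4.63% after thinning to the common depth and 0.559% and 1.05% after thinning to 500 UMIs, which by construction change how many UMIs a cell can reach. The intervals of the libraries overlapped with a threshold of 5 (1.10% to 2.07% in aged and 1.49% to 3.31% in young neutrophils). They also overlapped after thinning to 500 UMIs (0.313% to 0.921% and 0.543% to 1.83%).

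Counts of genes at least 2-fold higher or lower in members differed between thresholds, UMI minimums and scalings. They were 48 higher and 103 lower (aged) and 25 and 45 (young) with a threshold of 2, and 248 and 507 (aged) and 135 and 272 (young) with a threshold of 5. They were 1331 and 4182 (aged) and 1278 and 3837 (young) with a minimum of 1 UMI, and 9 and 10 (aged) and 4 and 1 (young) with a minimum of 200, which tests other sets of genes. TMM scaling gave 49 higher in aged and 24 higher and 171 lower in young members, and DESeq2 size factors 51 in aged and 25 and 167 in young members.

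The median log2 ratio of the other interferon-stimulated genes stayed above 0 under all 14 alternatives. In the young library it was 0.66 with a threshold of 2, 0.62 with TMM and 0.63 with DESeq2 size factors, and with a minimum of 200 UMIs it was 0.48 in the aged and 0.40 in the young library. The scalings moved all genes alike.

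Named genes turned in 11 values, all close to 0. On the log2 scale S100a11 was 0.025 in aged members among cells of 1500 to 3000 UMIs, and Tmsb4x was 0.0083 (aged, threshold of 2), Mmp8 0.0097 (aged, threshold of 5) and Retnlg 0.0011 (young, threshold of 5). With TMM scaling Wfdc17 was -0.019 in aged and -0.040 in young members, Slpi -0.0026 in aged and Malat1 -0.019 in young members. With DESeq2 size factors Wfdc17 was -0.0094 in aged and -0.035 in young members and Malat1 -0.014 in young members. For the thresholds and the range of UMIs the cause was not tested.

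Depth limits single genes: Usp18, for example, gave 8 UMIs in aged and 10 in young members. Without the members with a sum of 6 or more, ratios of several such genes were more than 1.5 times smaller, as given beside them.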

Other observations

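These genes were outside the named set and were chosen after their values were seen. Gm13822, annotated as an antisense RNA on the minus strand at chr5:114917318-114923277 (GENCODE annotation on GRCm38), lies 5084 bases beyond the end of Oasl2. It gave 33 UMIs in aged members and 78 in aged sum-0 cells, a ratio of 6.94 (4.48 to 10.6), and 20 and 67 in young cells, a ratio of 2.88 (1.65 to 4.80). Its UMIs lay in 28 of 112 aged members and 75 of 1913 aged sum-0 cells, and in 13 of 79 young members and 58 of 786 young sum-0 cells. Whether reads of neighbouring genes reach this annotation was not tested.

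Trafd1, a regulator of innate immune signalling, had a ratio of 3.63 (2.08 to 6.01) in aged and 1.87 (0.703 to 4.27) in young members. Samd9l, an interferon-induced growth regulator, had ratios of 2.66 (1.55 to 4.35) and 2.49 (0.987 to 5.53). The young intervals of both held 1.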
